A study of Mus musculus with 10 samples.

Results

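Cajal-Retzius cells of the E16.5 mouse cortex were studied in 10 embryos with 0, 1 or 2 mutant copies of Gatad2b, 1 single-cell library per embryo. They were chosen as cells with at least 3 UMIs of Reln, at least 1 of the 4 further marker genes Trp73, Lhx1, Lhx5 and Ebf3 detected, and at most 1 UMI of Dlx1, Dlx2 and Dlx5 together. Among 65779 kept cells (1000 UMIs or more, of which no more than 10% mitochondrial), 791 met this rule, or 1.20%. The WT group was 3 gatad2b WT embryos, the Het group 4 heterozygous (Gatad2b stop/+) embryos, and the KO group 3 homozygous (Gatad2b stop/stop) embryos, on a C57BL/6N-Atm1Brd background. The mutant embryos carry Gatad2b tm1a(EUCOMM)Hmgu, a trap cassette in an intron, in every cell and not only in Cajal-Retzius cells. The exons are retained, so 3′ reads of Gatad2b need not be lost. The sexes of the embryos were not stated, and an embryo was counted as 1 replicate.

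Cajal-Retzius cells are early-born neurons that settle in the marginal zone, the later layer I. They secrete reelin, the extracellular glycoprotein encoded by Reln, through which migrating neurons below them are guided into layers by the receptors Vldlr and Lrp8 and the adaptor Dab1. Trp73 and the LIM-homeobox genes Lhx1 and Lhx5 mark these cells, most of which are lost after birth. Gatad2b encodes a subunit of NuRD, a chromatin complex that joins nucleosome remodeling to histone deacetylation. The design asks whether these cells differ in number or in expression with the number of mutant copies.

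The cells carried other Cajal-Retzius markers that the rule had not used, with Ebf1 as an exception. Ebf1 was at a median of 64.3 CPM (library-scaled counts) over the embryos, against 71.6 in the rest of the cells. It was detected in 30% to 49.3% of the chosen cells per embryo, so it does not set them apart. Nhlh2, a basic helix-loop-helix factor, was detected in 96.0% of the 791 cells, Tbr1 in 92.5%, Ndnf, a secreted neurotrophic factor, in 88.0%, Cxcr4 in 69.4%, Calb2 (calretinin) in 69.3% and Ebf2 in 37.4%. Tbr1 was also detected in 60.1% to 81.5% of excitatory neurons per embryo and Cxcr4 in 38.5% to 63.5% of inhibitory neurons with Reln, so neither is particular to these cells. Of the marker genes in the rule, Lhx5 was detected in 90.5%, Trp73 in 86.9%, Lhx1 in 86.5% and Ebf3 in 85.7%. All 4 were detected in 592 cells, 3 in 71, 2 in 56 and 1 in 72. Ranked by the ratio of medians over embryos to the rest of the cells, with 5 CPM (library-scaled counts) added, the leading genes outside the rule were Ndnf, Nhlh2, Gm27199, Lhx1os, Cacna2d2, Car10, Snhg11, Tmem163, Fibin and Ramp1, which follows from the choice of the cells and carries no test. Median CPM over the embryos was 1233 for Ndnf in these cells against 1.06 in excitatory neurons, and 4.20 for the GABA-synthesis gene Gad2 against 248 in inhibitory neurons with Reln. Neurod6, a gene of excitatory neurons, was at 145 CPM against 1456 in those neurons. The excitatory neurons were themselves chosen by at least 3 Neurod6 UMIs and no Reln, so that contrast follows from the choice.

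**Figure D1:**
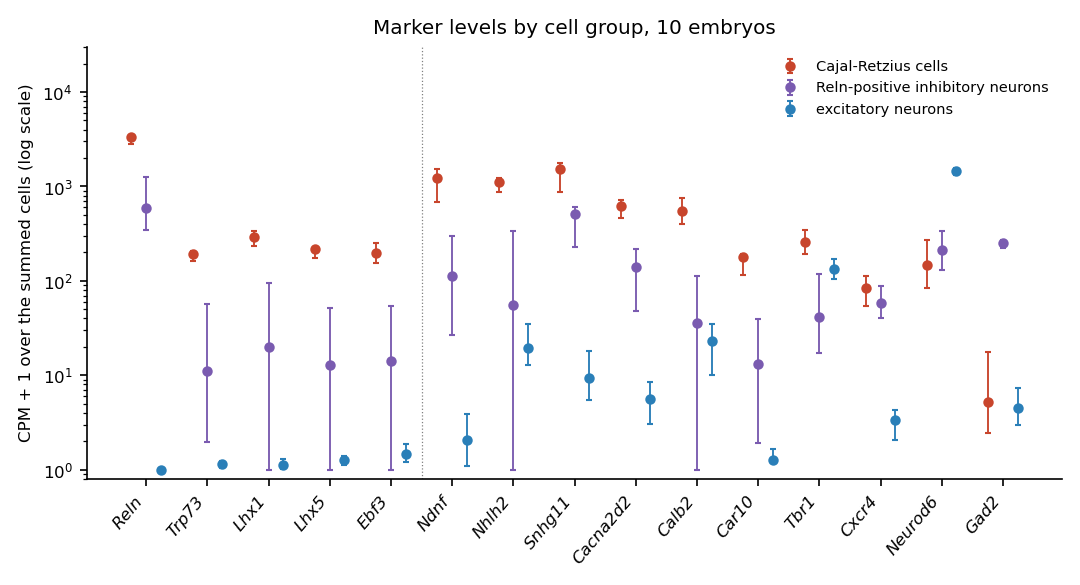
Level of marker genes (CPM + 1, log axis) in Cajal-Retzius cells, inhibitory neurons with Reln and excitatory neurons; points are medians and bars the range over 10 embryos, and genes left of the dotted line chose the cells. Medians in Cajal-Retzius cells lay above those in excitatory neurons for every gene shown except Neurod6, and above those in inhibitory neurons for every gene except Neurod6 and Gad2. Neurod6 and the absence of Reln chose the excitatory neurons.

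The 791 cells were deeply sampled and differed among themselves. The median cell held 24253 UMIs from 5566 genes, 4.05% of them mitochondrial, and a median of 73 Reln UMIs with quartiles of 26 and 123 and a maximum of 355. In the 592 cells with all 4 marker genes the median was 92.5 Reln UMIs, in the 72 cells with 1 marker gene it was 7. Those 72 cells were less uniform: Nhlh2 was detected in 73.6% of them against 99.3% of the cells with all 4, Ndnf in 44.4% against 94.9%, and Neurod6 in 55.6% against 39.0%. At the edge of the rule, 25 cells with exactly 3 Reln UMIs were inside and 32 cells with exactly 2, otherwise meeting the rule, were outside. Free RNA can give UMIs in cells that lack a gene: among 1535 erythroid cells, those with at least 50% hemoglobin UMIs and with 9403 UMIs as the middle of the embryos' medians, 3.39% had any Reln UMI, 0 had 3 or more and 0 met the rule, which allows a share of up to 0.195%. Summed over an embryo, the cells supplied 58.1% to 83.7% of its Reln UMIs and 72.8% to 97.1% of its Trp73 UMIs.

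Kept libraries ranged from 5147 to 8103 cells and the summed Cajal-Retzius counts from 987929 to 2853423 UMIs, the lowest in KO2 with 40 cells. Library names carry 1 of 2 prefixes whose meaning is not stated: the 3 WT libraries and Het4 share the first, and Het1 to Het3 and the 3 KO libraries the second, so KO and WT cannot be compared within a prefix. In a fit with the prefix as a covariate, Het vs WT sets Het4 alone against the 3 WT libraries. KO vs Het sets the 3 KO libraries against Het1 to Het3. The KO vs WT difference then joins these 2 differences, so each result of that fit against WT rests on Het4. Pairs of libraries shared 4 to 19 barcodes of kept cells, and Cajal-Retzius cells shared 1 in total. Doublet scoring marked 147 of the 791 cells (18.6%) against 3.94% to 6.38% of kept cells per embryo; marked cells were kept and left out in an alternative.

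The share of Cajal-Retzius cells did not separate the genotypes. It was 1.06, 1.22 and 1.33% of kept cells in the WT embryos, 1.22, 1.74, 1.48 and 0.985% in the Het embryos and 1.16, 0.777 and 1.08% in the KO embryos. Each pair of groups overlapped. Means were 1.20 ± 0.136% (WT), 1.35 ± 0.326% (Het) and 1.01 ± 0.203% (KO) (SD, n = 3, 4 and 3). The differences were 0.152 percentage points for Het vs WT (p = 0.514), -0.196 for KO vs WT (p = 0.3) and -0.348 for KO vs Het (p = 0.229), all by two-sided exact permutation tests. Adjusted over these 3 comparisons, the exact p-values were 0.514, 0.45 and 0.45, and the smallest these designs allow is 0.1 for 3 against 3 and 0.0571 for 3 against 4 embryos. Counting error alone gave a 95% exact binomial interval of 0.556 to 1.06% for the lowest embryo, KO2, and 1.43 to 2.1% for the highest, Het2. Cells that failed the rule only by 2 or more Dlx UMIs numbered 9 in KO2, beside its 40 chosen cells. They numbered 18 in WT2, beside its 87, and 1 to 9 in the other embryos. Their part in the shares was not tested.

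**Figure D2:**
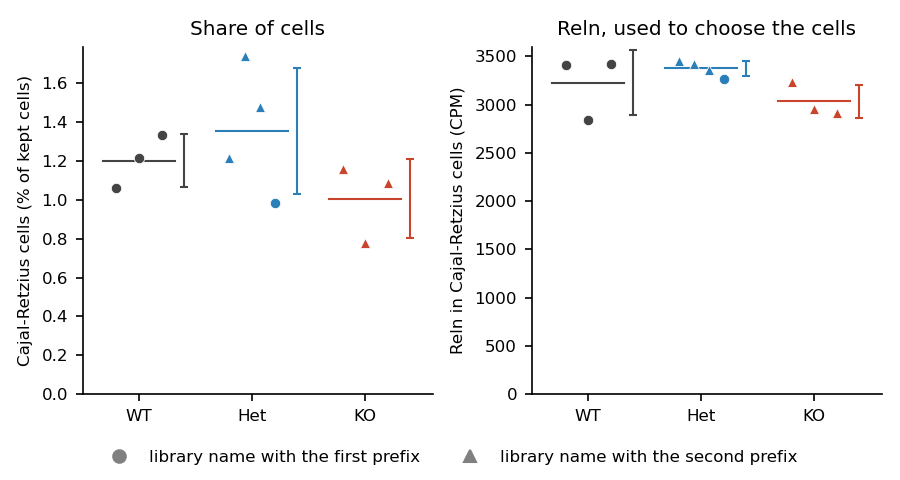
Left, Cajal-Retzius cells as a share of kept cells (%); right, Reln in these cells (CPM). Points are embryos, lines group means and bars ± SD; circles and triangles mark the prefix of the library name. Shares of the 3 groups overlapped, with means of 1.20% (WT), 1.35% (Het) and 1.01% (KO).

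The genes that chose the cells are given by level in the 3 groups as a description. Reln was at 3414, 2840.1 and 3423 CPM in the WT embryos, 3452, 3418, 3361 and 3268 in the Het embryos and 3230.2, 2956 and 2917 in the KO embryos. For Trp73 the group means were 177 ± 14.6 CPM (WT), 195 ± 13 (Het) and 194 ± 13.9 (KO) (SD, n = 3, 4 and 3), for Lhx1 302 ± 33.1, 276 ± 29.4 and 280.4 ± 39.2, for Lhx5 209 ± 25.9, 218 ± 11.7 and 189.99 ± 21.4, and for Ebf3 183 ± 28.1, 199 ± 27.3 and 208 ± 44.9. Each pair of groups overlapped for Trp73, Lhx1, Lhx5 and Ebf3, and for Reln each KO embryo lay below each Het embryo while both groups overlapped WT. Summed over all kept cells, where no threshold on these genes enters, 0 of 10 tests of the 5 genes (Het vs WT, KO vs WT) were called by edgeR, 1 had an unadjusted p under 0.05, and DESeq2 called 1 of 10. In KO vs Het, 0 of the 5 were called by edgeR there, with Lhx5 at -0.58 (adjusted p = 0.114) and Reln at -0.47 (adjusted p = 0.115), both at an unadjusted p under 0.05. DESeq2 called Lhx5 (adjusted p = 0.0326). Both genes were called as lower with the prefix (adjusted p = 0.0238 for Reln and 0.0236 for Lhx5), with the replicate block (0.0318 and 0.0239) and without Het4 (0.0237 and 0.0233). In each of these fits Het4 does not enter KO vs Het, so they are not separate alternatives. Over all kept cells, called genes made up 2.98% of all genes for Het vs WT, 24.5% for KO vs WT and 5.5% for KO vs Het. In KO vs WT Lhx1 was at -0.49 ± 0.192 (SE) with an adjusted p of 0.0643, and Reln was at -0.37 ± 0.177 with an adjusted p of 0.122. Fewer Cajal-Retzius cells and less RNA per cell cannot be told apart in that sum. In it, Reln was at 79.4, 85.3 and 99.4 CPM in the WT embryos, 88.7, 129, 90.9 and 69.3 in the Het embryos and 68.97, 60.95 and 74.5 in the KO embryos, each KO embryo below each WT embryo and Het4 among them. The direction of the calls in other fits was lower in KO vs WT throughout: Lhx1, Lhx5 and Reln without Het2, Lhx1 and Lhx5 without Het4, Lhx1 without WT1, and Lhx1 by DESeq2 at -0.49 (adjusted p = 0.0271). With the prefix as a covariate Reln was at -0.94 (adjusted p = 0.0382) and Lhx5 at -1.15 (adjusted p = 0.0372).

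Gatad2b itself, at chr3:90293178-90363407 (GRCm38), was lower in the KO cells. Its levels were 98.2, 109 and 90.2 CPM in the WT embryos, 75.7, 76.8, 71.8 and 87.4 in the Het embryos and 34.3, 32.9 and 43.5 in the KO embryos. Every KO embryo lay below every Het embryo, and every Het embryo below every WT embryo. In KO vs WT it fell by 1.40 ± 0.134 on the log2 scale (SE, adjusted p = 2.98e-05, edgeR quasi-likelihood test with Benjamini-Hochberg adjustment). Het vs WT was log2 fold change -0.35 (adjusted p = 0.327) and not called. Excitatory neurons gave log2 fold change -1.43 (adjusted p = 8.66e-09) in KO vs WT, and the difference between the cell groups was 0.04 ± 0.122 (SE), adjusted p = 0.95. The order of Gatad2b levels followed the labels in all 10 libraries.

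Across the 10687 genes tested in Cajal-Retzius cells, 392 were called in KO vs WT (3.67%). A call needed an adjusted p below 0.05 together with a log2 fold change beyond 0.25 in size. Of these, 197 were higher (1.84%) and 195 lower (1.82%). In KO vs Het 71 were called (0.664%), 32 higher (0.299%) and 39 lower (0.365%), and in Het vs WT 8 (0.0749%), 4 higher (0.0374%) and 4 lower (0.0374%). KO and WT embryos did not overlap for 387 of the 392 genes (3.62% of genes tested), beside 23.9% of all genes tested whether called or not. Without regard to calls, Het and WT embryos did not overlap for 8.17% of genes and KO and Het embryos for 9.52%. The median log2 fold change of all genes was -0.004 in KO vs WT. With the prefix as a covariate 76 genes were called in KO vs WT, 57 of them among the 392, and 0 in Het vs WT, where 690 had an unadjusted p under 0.05 and DESeq2 without the prefix called 25. Without 1 library the KO vs WT count was 181 (WT1), 158 (WT3), 241 (KO1), 244 (KO2) and 192 (KO3), and in Het vs WT 84 without Het4, 12 without WT3 and 3 without each other library. In KO vs Het it was 10 without Het2, 14 without KO3, 26 to 38 without Het1, Het3, KO1, KO2, WT1 or WT3, and 110 without Het4. For genes named below other than Epha3, 14 of 55 KO vs WT calls held under all 22 alternatives. With the prefix as a covariate 37 of the 55 were lost, 16 of them in that alternative only. Without at least 1 library 24 were lost, and these losses can fall on the same genes.

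Pnoc, Angpt1, Gfra1 and Fam19a5 were among the largest decreases. Pnoc, the precursor of the opioid-like peptide nociceptin, was at 234, 156 and 178 CPM in the WT embryos, 79.6, 124, 138 and 119 in the Het embryos and 25.2, 15.4 and 9.49 in the KO embryos. All KO embryos lay below all others, and all Het embryos below all WT embryos. The KO vs WT difference was a log2 fold change of -3.49 ± 0.259 (SE), adjusted p = 1.11e-06, the largest decrease among the named genes that were called, and KO vs Het of log2 fold change -2.78 (adjusted p = 4.51e-05). Within the second prefix, KO against Het1 to Het3 gave log2 fold change -2.76 (adjusted p = 3.15e-05), and with the prefix as a covariate KO vs WT had an adjusted p of 0.000595. Angpt1, a ligand of the Tie2 receptor, was at 93.7, 99 and 110.3 CPM in the WT embryos, 90.9, 106, 123 and 61.6 in the Het embryos and 26.3, 13.3 and 29 in the KO embryos. The Het embryos overlapped WT, and Het4 was the lowest of them. Its KO vs WT difference was a log2 fold change of -2.05 ± 0.231 (SE), adjusted p = 0.000106, and within the second prefix KO vs Het was log2 fold change -2.12 (adjusted p = 1.87e-05). Gfra1, the co-receptor for GDNF, had levels of 50.4, 43.4 and 60.2 CPM in the WT embryos, 42.8, 37.9, 36.4 and 25.2 in the Het embryos and 24.6, 10.3 and 9.99 in the KO embryos. Gfra1 fell by 1.71 on the log2 scale in KO vs WT (adjusted p = 0.00172). Fam19a5, a secreted chemokine-like protein, was at 44.3, 50.3 and 41 CPM in the WT embryos, 29.5, 29.3, 36.9 and 30.8 in the Het embryos and 17.7, 16.4 and 15.5 in the KO embryos. Fam19a5 had a KO vs WT log2 fold change of -1.45 ± 0.164 (SE), adjusted p = 0.000106. Each of these 4 calls held under all 22 alternatives.

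Scg2, a granin of dense-core vesicles, and Cck, the peptide cholecystokinin, fell as well. Scg2 was at 79.6, 140.4 and 64.9 CPM in the WT embryos, 39.3, 59.6, 36.4 and 54.9 in the Het embryos and 26.3, 9.24 and 18.5 in the KO embryos. Scg2 had a KO vs WT log2 fold change of -2.30 ± 0.308 (SE), adjusted p = 0.000587. Cck was at 77, 67.2 and 147 CPM in the WT embryos, 64.9, 70.7, 77.2 and 58.8 in the Het embryos and 20.4, 4.11 and 39.97 in the KO embryos. Cck had a KO vs WT log2 fold change of -2.0 ± 0.353 (SE), adjusted p = 0.00396. KO embryos lay below all WT and Het embryos for both genes. With the prefix as a covariate both calls were lost at folds of -2.04 and -2.26 (log2, adjusted p = 0.0832 and 0.0955), while KO against Het1 to Het3 within the second prefix gave log2 fold change -1.25 (adjusted p = 0.0217) for Scg2 and log2 fold change -1.54 (adjusted p = 0.0195) for Cck. Calb1 (calbindin) and Fam177a were lower as well, at log2 fold change -1.47 (adjusted p = 0.0168) and log2 fold change -1.30 (adjusted p = 0.0216). The call of Calb1 was lost with the prefix as a covariate (log2 fold change -1.40, adjusted p = 0.275) and without WT1 or KO3 (0.0769 to 0.106), all values in parentheses here being adjusted p. The Fam177a call was lost with the prefix as a covariate (log2 fold change -0.53, adjusted p = 0.693) and without WT1, KO2 or KO3 (0.0702 to 0.104).

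Promoter windows of Scg2 and Cck are shown because both are peptide-pathway genes that fell together, and the cyclic AMP response element TGACGTCA is a textbook feature of such promoters. They are RefSeq windows on GRCm38.p6, 250 bases before to 50 after the gene's start, minus strand, chr1:79439977-79440276 for Scg2 and chr9:121495645-121495944 for Cck. Inside the window start 2 of 2 GENCODE transcripts of Scg2 and 1 of 6 of Cck. Capitals mark TGACG or its reverse complement CGTCA, the short form of the element, wherever a search of both strands found it.
Scg2: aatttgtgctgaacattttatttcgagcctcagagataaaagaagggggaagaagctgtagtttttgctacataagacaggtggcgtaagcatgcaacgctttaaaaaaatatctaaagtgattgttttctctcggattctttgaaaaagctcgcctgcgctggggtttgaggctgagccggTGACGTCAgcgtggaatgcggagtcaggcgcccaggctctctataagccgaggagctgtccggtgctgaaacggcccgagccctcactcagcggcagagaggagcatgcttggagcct
Cck: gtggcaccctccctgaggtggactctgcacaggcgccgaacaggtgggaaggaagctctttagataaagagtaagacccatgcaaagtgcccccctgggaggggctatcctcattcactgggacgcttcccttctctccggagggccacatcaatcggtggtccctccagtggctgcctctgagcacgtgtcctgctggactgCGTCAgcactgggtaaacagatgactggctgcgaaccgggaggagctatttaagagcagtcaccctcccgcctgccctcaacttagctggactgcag
The Scg2 window held the full 8-base element, made of 2 overlapping short forms that begin 68 and 65 bases before the start, and the Cck window 1 short form at 47 bases before it. Of all 32851 windows, 1.79% held the full element and 20.81% the short form. Windows of Pnoc and Angpt1 were looked for and not found in the table.

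**Figure D3:**
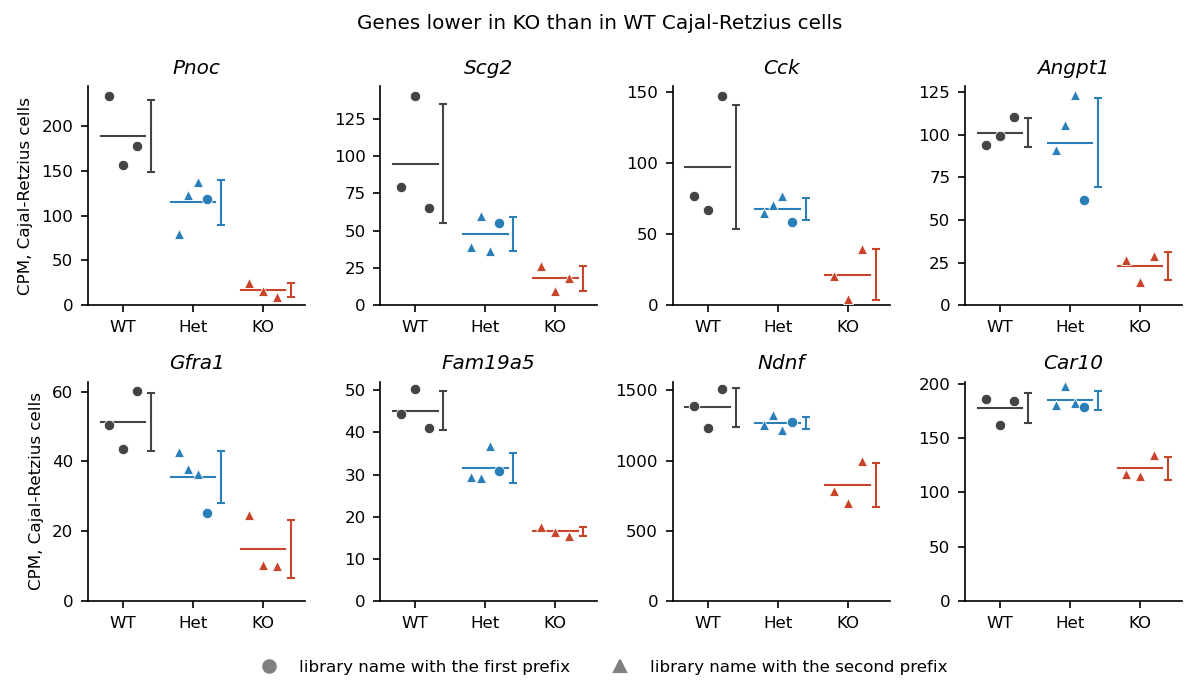
Levels (CPM) per embryo of 8 genes lower in KO than in WT Cajal-Retzius cells. Points are embryos, lines group means, bars ± SD, and circles and triangles the prefix of the library name. For all 8 genes the 3 KO embryos lay below the 3 WT and the 4 Het embryos. Called or not, 23.9% of all genes tested did not overlap between KO and WT embryos, and 9.52% between KO and Het. The largest changes were named only where KO and WT embryos did not overlap, so that part was set by the choice.

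Of 10 surface and cytoplasmic markers of Cajal-Retzius cells that the rule did not use, 5 fell in KO vs WT, beside 1.82% of all genes, 2 rose, beside 1.84%, and 3 were not called, with a median log2 fold change of -0.409 beside -0.004 over all genes. This list and the gene lists below were chosen with earlier results of these data known. Their counts are a description and not independent evidence. Ndnf was at 1389.7, 1232 and 1512 CPM in the WT embryos, 1249.6, 1327, 1219.6 and 1272 in the Het embryos and 785, 696 and 997 in the KO embryos. No KO embryo reached the lowest of the others, and KO vs WT had a log2 fold change of -0.73 ± 0.109 (SE), adjusted p = 0.00128, with KO vs Het at log2 fold change -0.61 (adjusted p = 0.0166). Car10, a carbonic anhydrase-related protein, was at 178 ± 13.4 CPM (WT), 185 ± 8.73 (Het) and 122 ± 10.6 (KO) (SD). Car10 had a KO vs WT log2 fold change of -0.53 ± 0.0935 (SE), adjusted p = 0.00396. Snhg11, a host gene of small nucleolar RNAs, was at log2 fold change -0.59 (adjusted p = 0.00732) and Cacna2d2, a calcium-channel subunit, at log2 fold change -0.36 (adjusted p = 0.0274). Slc17a6, the vesicular glutamate transporter VGLUT2 of these glutamatergic cells, was at log2 fold change -0.46 (adjusted p = 0.0224). Calls were lost, with the adjusted p in parentheses, for Ndnf with the prefix as a covariate (log2 fold change -0.73, adjusted p = 0.0832), Car10 with the prefix as a covariate (log2 fold change -0.60, adjusted p = 0.0832) and Snhg11 with the prefix as a covariate (log2 fold change -0.75, adjusted p = 0.0781). The Slc17a6 call was lost with the prefix as a covariate (log2 fold change -0.53, adjusted p = 0.204) and without WT2, WT3, KO1 or KO3 (0.0582 to 0.128). The Cacna2d2 call was lost with the prefix as a covariate (log2 fold change -0.23, adjusted p = 0.524), without WT1, WT3, KO2 or KO3 (0.0754 to 0.141) and with marked doublets removed (0.0728). In KO vs Het 4 of the 10 fell, beside 0.365% of all genes, and 6 were not called, the 4 being Ndnf, Car10, Snhg11 and Cacna2d2. The KO vs Het call of Car10 held under all 23 alternatives. That of Ndnf was lost without Het2, KO1 or KO2 (0.0502 to 0.057). That of Snhg11 was lost in 11 of 23, among them without 7 of the libraries (0.0729 to 0.172) and with doublets removed, and that of Cacna2d2 in 14 of 23, among them without 7 of the libraries (0.0606 to 0.275) and with the replicate block. Within the second prefix, KO vs Het was log2 fold change -0.61 (adjusted p = 0.00914) for Ndnf, log2 fold change -0.61 (adjusted p = 0.00584) for Car10, log2 fold change -0.52 (adjusted p = 0.0253) for Snhg11 and log2 fold change -0.35 (adjusted p = 0.039) for Cacna2d2. Cxcr4, the receptor for the meningeal chemokine Cxcl12, and the adhesion gene Nectin1 were higher, at log2 fold change 0.66 (adjusted p = 0.0498) and log2 fold change 0.64 (adjusted p = 0.018). Cxcr4 turned to -0.07 with the prefix as a covariate: it was at 68, 52.7 and 52.3 CPM in the WT embryos, 90.9, 88.6, 112 and 58.3 in the Het embryos and 98, 93.4 and 81.4 in the KO embryos, so Het4 lay with WT and the other Het embryos with KO. Its call was lost with the prefix as a covariate (log2 fold change -0.07, adjusted p = 0.945), without WT1, WT2, WT3, Het1, Het2, KO1, KO2 or KO3 (0.0554 to 0.184), in cells with at least 3000 UMIs (0.0512) and in cells with at most 5% mitochondrial UMIs (0.0812). That of Nectin1 was lost with the prefix as a covariate (log2 fold change 0.87, adjusted p = 0.113) and without WT1, KO1 or KO2 (0.0674 to 0.0898).

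Of 23 transcription factors of the lineage tested, 6 rose in KO vs WT, beside 1.84% of all genes, and 17 were not called, with a median log2 fold change of 0.343 beside -0.004 over all genes. This list too was chosen with earlier results known, so the count is not independent evidence. The 8 markers of cortical-plate excitatory neurons other than Mef2c summed to 293 to 476 CPM (WT), 241 to 367 (Het) and 435 to 654 (KO), and their part in these changes was not tested. Tbr1, a T-box factor of early-born cortical neurons, was at 194, 199.5 and 235 CPM in the WT embryos, 232, 258, 258 and 276 in the Het embryos and 299.5, 350.1 and 304 in the KO embryos. All KO embryos lay above all others, and KO vs WT gave a log2 fold change of 0.59 ± 0.0972 (SE), adjusted p = 0.00266. Lhx9, a LIM-homeobox gene, was at 40.3, 56.3 and 64.5 CPM in the WT embryos, 60.5, 66.4, 68.8 and 101 in the Het embryos and 90.01, 121 and 103 in the KO embryos, with Het4 within the KO range and a KO vs WT log2 fold change of 0.93 ± 0.186 (SE), adjusted p = 0.00913. Dmrta2, which shapes the cortical hem where many of these cells arise, was at 101, 109 and 113 CPM in the WT embryos, 151, 136, 119.99 and 161 in the Het embryos and 190.2, 155 and 154 in the KO embryos. Dmrta2 had a KO vs WT log2 fold change of 0.63 ± 0.115 (SE), adjusted p = 0.00442. The calls of Tbr1, Lhx9 and Dmrta2 held under all 22 alternatives. Ebf2 was at 26.7, 18.1 and 26.2 CPM in the WT embryos, 48.7, 32.1, 34.4 and 31.4 in the Het embryos and 55.7, 51.3 and 62.5 in the KO embryos. Ebf2 had a KO vs WT log2 fold change of 1.28 ± 0.187 (SE), adjusted p = 0.00118. The Ebf2 call was lost with the prefix as a covariate (log2 fold change 1.01, adjusted p = 0.199). Nhlh2 rose by less, log2 fold change 0.34 (adjusted p = 0.0327) in KO vs WT. Its change was as large in Het, with means of 910 CPM (WT), 1160 (Het) and 1154 (KO). Het vs WT was log2 fold change 0.35 (adjusted p = 0.153, not called) with no overlap of embryos, and KO vs Het was -0.01. The Nhlh2 call was lost with the prefix as a covariate (log2 fold change 0.32, adjusted p = 0.342), without WT1, WT2, WT3, KO1 or KO2 (0.0796 to 0.134) and in cells with at most 5% mitochondrial UMIs (0.0616). Emx1, which is also a gene of excitatory neurons, was at log2 fold change 1.34 (adjusted p = 0.0331). The Emx1 call was lost without WT1, WT2, WT3 or KO1 (0.0859 to 0.24) and in 5 alternatives of cells or model (0.051 to 0.363). The most abundant others, Nr2f2 and Emx2, were not called, at 694 ± 58.5 CPM in WT and 834 ± 44.1 in KO and at 410.4 ± 25.1 and 389.6 ± 22.1 (SD, n = 3 each). In KO vs WT, Nr2f2 was called as higher in 3 of 22 alternatives, among them the replicate block (adjusted p = 0.0466) and doublets removed (adjusted p = 0.0344). In Het it was at 857 ± 60.5 CPM (SD, n = 4). Of the 23 factors, edgeR called 0 in Het vs WT. DESeq2, with 25 calls among all 10687 genes, called 2, Nhlh2 (adjusted p = 0.00578) and Nr2f2 (adjusted p = 0.0488), both higher.

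Crtac1 and Lef1 were among the largest increases. Crtac1, a secreted protein of the nervous system, was at 12.1, 8.85 and 9.15 CPM in the WT embryos, 12.8, 21.8, 19.7 and 21.3 in the Het embryos and 50.4, 25.7 and 39.97 in the KO embryos. Crtac1 had a KO vs WT log2 fold change of 2.01 ± 0.249 (SE), adjusted p = 0.000232. Lef1, the DNA-binding partner of Wnt signals, was at 6.55, 11.3 and 13.1 CPM in the WT embryos, 19.2, 16.1, 30.5 and 29.7 in the Het embryos and 45.5, 23.6 and 38.5 in the KO embryos. Lef1 had a KO vs WT log2 fold change of 1.83 ± 0.29 (SE), adjusted p = 0.00204. Both were higher in all KO than in all WT embryos, the Het range of Lef1 reached into the KO range, and both calls held under all 22 alternatives. Tyro3, a receptor kinase, was at log2 fold change 1.52 (adjusted p = 0.00172) and Fos, an immediate early gene, at log2 fold change 1.72 (adjusted p = 0.000172). Neurod1 and Insm1, factors of new neurons, were at log2 fold change 1.64 (adjusted p = 0.00577) and log2 fold change 1.45 (adjusted p = 0.00934), Bmp2 at log2 fold change 1.37 (adjusted p = 0.0202), the corepressor gene Rcor2 at log2 fold change 1.35 (adjusted p = 0.00767) and Hmgb2, a gene of dividing cells, at log2 fold change 1.56 (adjusted p = 0.00915). The highest embryo was KO3 for Hmgb2, at 114 CPM, and KO1 for Neurod1, at 197. Calls were lost, with the adjusted p in parentheses, for Tyro3 with the prefix as a covariate (log2 fold change 1.22, adjusted p = 0.255) and for Fos with the prefix as a covariate (log2 fold change 1.24, adjusted p = 0.088). The call of Neurod1 was lost with the prefix as a covariate (log2 fold change 2.13, adjusted p = 0.104) and with marked doublets removed (0.0828). The Insm1 call was lost with the prefix as a covariate (log2 fold change 1.57, adjusted p = 0.206), without KO3 (0.0618), in cells with at least 2 of the 4 marker genes (0.0599) and in cells with all 4 marker genes (0.075). The Bmp2 call was lost with the prefix as a covariate (log2 fold change 2.06, adjusted p = 0.0638), without WT1, WT3, KO1 or KO3 (0.0596 to 0.104) and in cells with at most 5% mitochondrial UMIs (0.0666). The Rcor2 call was lost without WT3 or KO3 (0.0529 to 0.0618) and with marked doublets removed (0.227). The Hmgb2 call was lost with the prefix as a covariate (log2 fold change 1.42, adjusted p = 0.305), without WT3 or KO3 (0.0601 to 0.0645) and with marked doublets removed (0.285). AY036118, a noncoding transcript, was at 209, 169 and 235 CPM in the WT embryos, 591, 621, 685 and 213 in the Het embryos and 624, 747 and 554 in the KO embryos. Those levels followed the prefix, Het4 lying with WT, and the prefix fit gave an adjusted p of 0.928 against 0.00279 without it. The study removed a transcript with a near-identical symbol because it maps to ribosomal DNA repeats. Whether that is AY036118 is not stated there.

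**Figure D4:**
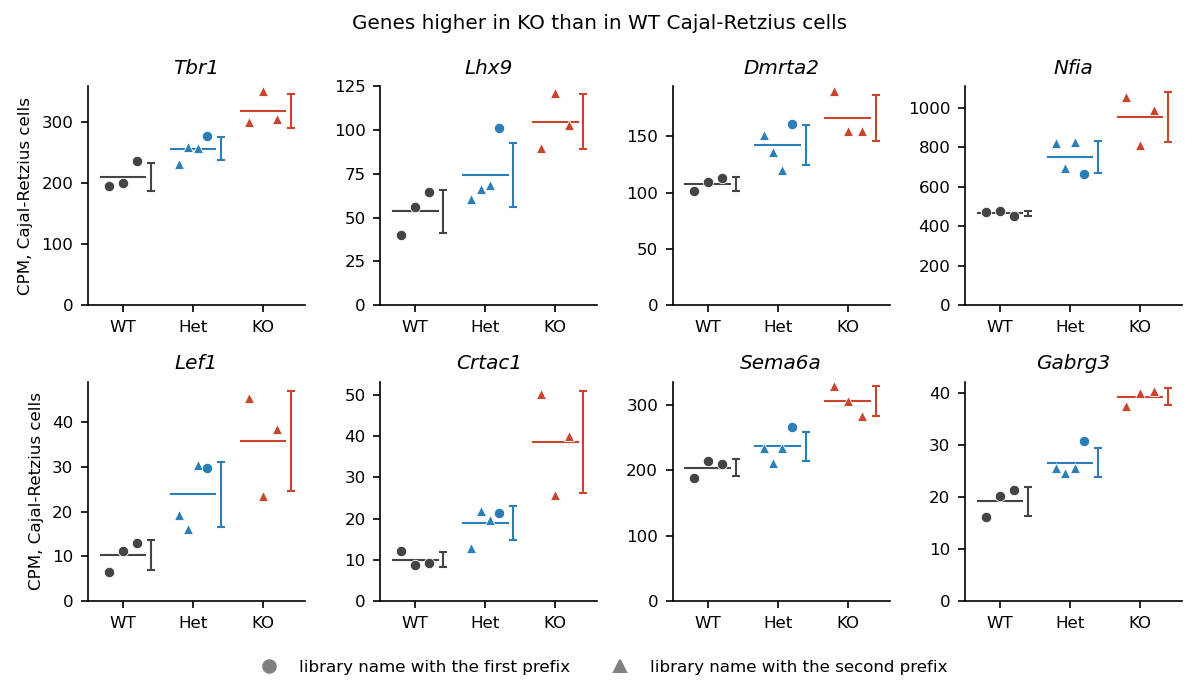
Levels (CPM) per embryo of 8 genes higher in KO than in WT Cajal-Retzius cells. Points are embryos, lines group means, bars ± SD, and circles and triangles the prefix of the library name. KO embryos lay above all WT embryos for the 8 genes, while Het embryos reached into the KO range for Lhx9, Dmrta2, Nfia and Lef1. Called or not, 23.9% of all genes tested did not overlap between KO and WT embryos. The 8 genes were taken from called genes, of which nearly all do not overlap.

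Of 41 genes of migration, guidance and adhesion tested, 7 rose in KO vs WT, 1 fell and 33 were not called, beside 1.84% of all genes higher and 1.82% lower. The list's median log2 fold change was 0.019. Sema6a, a transmembrane semaphorin, was at 189, 214 and 209.7 CPM in the WT embryos, 234, 212, 235 and 267 in the Het embryos and 328, 306 and 284 in the KO embryos. Sema6a had a KO vs WT log2 fold change of 0.58 ± 0.0953 (SE), adjusted p = 0.00266, and its call held under all 22 alternatives. Others higher were the ephrin receptor Epha5 at log2 fold change 0.66 (adjusted p = 0.0326), the Slit receptor Robo1 at log2 fold change 0.65 (adjusted p = 0.0226), the ephrin Efnb2 at log2 fold change 0.61 (adjusted p = 0.0139) and the adhesion gene Chl1 at log2 fold change 0.55 (adjusted p = 0.0201). Epha3, an ephrin receptor at log2 fold change 0.55 (adjusted p = 0.0224), and Cxcr4 made up the 7. For Epha3 no alternatives are given. The Epha5 call was lost without WT1, WT3, KO1, KO2 or KO3 (0.0617 to 0.134) and by DESeq2 (0.0871), with the adjusted p in parentheses. The Robo1 call was lost with the prefix as a covariate (log2 fold change 0.47, adjusted p = 0.502) and without WT1, WT3 or KO3 (0.0804 to 0.153). The Efnb2 call was lost with the prefix as a covariate (log2 fold change 0.78, adjusted p = 0.117) and without WT2, WT3 or KO1 (0.0506 to 0.0656). The Chl1 call was lost with the prefix as a covariate (log2 fold change 0.41, adjusted p = 0.457) and without WT1, WT3 or KO2 (0.0633 to 0.0946). Ncam1 and Lsamp, both among the most abundant of these genes, were not called.

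Of 25 genes of reelin reception and transduction tested, 1 rose in KO vs WT, 1 fell and 23 were not called, beside 3.67% of all genes called either way. The list's median log2 fold change was 0.064. Mapt, the microtubule protein tau downstream of the pathway, was at 1089, 1102 and 1065 CPM in the WT embryos, 786, 793, 755 and 956 in the Het embryos and 723, 789.5 and 807 in the KO embryos. Mapt had a KO vs WT log2 fold change of -0.49 ± 0.0891 (SE), adjusted p = 0.00446. The Mapt call was lost with the prefix as a covariate (log2 fold change -0.19, adjusted p = 0.513). Het4 lay nearest to WT of the Het embryos. Pafah1b2, a partner of Lis1, was at log2 fold change 0.32 (adjusted p = 0.0333). The Pafah1b2 call was lost with the prefix as a covariate (log2 fold change 0.28, adjusted p = 0.378), without WT1, WT2, WT3, KO1 or KO3 (0.075 to 0.126) and with marked doublets removed (0.0569). Map1b and Cfl1 were not called, at 3078 ± 106 CPM in WT and 2944 ± 254 in KO, and 1168 ± 41.8 and 1218 ± 72.6 (SD, n = 3 each). Of 8 reelin-processing enzymes, 3 passed the filter on low counts and 0 were called by edgeR or DESeq2, with 1 of the 3 at an unadjusted p under 0.05. Serpini1, an inhibitor of tissue plasminogen activator, averaged 26.8 CPM in WT and 25.7 in KO, Furin 12.2 and 15.9, and Plat 10.8 and 6.54. Plat was lower in all 21 alternatives, at log2 fold change -0.86 to -0.51, and called in 0 of them. Serpini1 took both signs, -0.53 to 0.31.

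Receptors and channels set how these cells respond and fire. Of 14 GABA and glycine receptor and chloride transport genes tested, 1 rose and 1 fell in KO vs WT, beside 1.84% of all genes higher and 1.82% lower, with a median log2 fold change of -0.185. Gabrg3, a GABA-A receptor subunit, was at 16.1, 20.1 and 21.4 CPM in the WT embryos, 25.6, 24.6, 25.6 and 30.8 in the Het embryos and 37.5, 40.04 and 40.5 in the KO embryos. The Het embryos lay between the WT and KO embryos with no overlap. Gabrg3 had a KO vs WT log2 fold change of 1.02 ± 0.159 (SE), adjusted p = 0.00174, a call that held under all 22 alternatives. Gabrb1, another subunit, was at log2 fold change -1.46 (adjusted p = 0.0324). The Gabrb1 call was lost with the prefix as a covariate (log2 fold change -1.31, adjusted p = 0.451), without WT1, WT2, WT3, KO1 or KO2 (0.0514 to 0.148) and with marked doublets removed (0.0921). Of 16 genes of glutamate transmission, 2 fell and 14 were not called: Gria4, an AMPA receptor subunit, at log2 fold change -1.02 (adjusted p = 0.00396) with means of 61 ± 6.77, 48.8 ± 7.57 and 29.4 ± 8.4 CPM in WT, Het and KO (SD), and Slc17a6. The call of Gria4 was lost with the prefix as a covariate (log2 fold change -0.61, adjusted p = 0.378). Of 25 voltage-gated channel genes, 3 fell and 22 were not called: Cacna2d2 and the calcium-channel genes Cacna1c at log2 fold change -0.66 (adjusted p = 0.0336) and Cacna1e at log2 fold change -0.72 (adjusted p = 0.0406). The call of Cacna1c was lost with the prefix as a covariate (log2 fold change -0.36, adjusted p = 0.639), without WT1, WT2, WT3, KO1 or KO3 (0.0582 to 0.131) and in 3 alternatives of cells or model (0.0507 to 0.148). The Cacna1e call was lost with the prefix as a covariate (log2 fold change -0.83, adjusted p = 0.33), without WT1, WT2, WT3, KO1, KO2 or KO3 (0.0662 to 0.151) and in 6 alternatives of cells or model (0.0515 to 0.323). Scn3a, a sodium channel gene, was called as higher in 6 of 22 alternatives, among them all 4 marker genes (adjusted p = 0.00933). Of all genes 1.82% were lower in KO vs WT. The list medians were -0.192 for glutamate and -0.239 for channels, beside -0.004 for all genes.

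In the NuRD complex, 1 of 16 subunit genes was higher in KO vs WT and Gatad2b was lower, beside 3.67% of all genes called either way. Cdk2ap1 was at 53.9, 56.3 and 49.7 CPM in the WT embryos, 77.2, 65.7, 78.2 and 47.6 in the Het embryos and 91.1, 103 and 105 in the KO embryos. Cdk2ap1 had a KO vs WT log2 fold change of 0.90 ± 0.151 (SE), adjusted p = 0.00294, with Het4 below the WT range and the call lost with the prefix as a covariate (log2 fold change 0.27, adjusted p = 0.661). The remodelers Chd3 and Chd4 and the deacetylase Hdac2 were not called, at 533 ± 62.2, 342 ± 2.89 and 241 ± 6.14 CPM in WT and 472 ± 5.12, 283 ± 43.1 and 305 ± 39.2 in KO (SD, n = 3 each). Hdac2 was called as higher in 5 of 22 alternatives, among them doublets removed (log2 fold change 0.42, adjusted p = 0.0192) and the replicate block (adjusted p = 0.0368). Chd4 was called as lower in 2, with at least 2 marker genes and with all 4 (log2 fold change -0.43, adjusted p = 0.0105), and its sign turned with the prefix as a covariate (0.23). Of 17 cell death and survival genes tested in all chosen cells, 0 were called by edgeR or DESeq2 in KO vs WT and 4 had an unadjusted p under 0.05, with a median log2 fold change of 0.082. Bax, a pro-apoptotic factor, was at 291 ± 4.82 CPM in WT and 365 ± 27.2 in KO (SD, n = 3 each). Bax was called as higher in 6 of 22 alternatives, among them all 4 marker genes (log2 fold change 0.35, adjusted p = 0.0299) and the replicate block (log2 fold change 0.32, adjusted p = 0.0157), and with the prefix as a covariate it was at 0.02.

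Of 29 tested genes that the study lists as changed in Het with a larger change in KO, a list chosen for both on these same embryos and so not independent evidence, 8 were higher and 11 lower in KO vs WT, beside 1.84% and 1.82% of all genes. In Het vs WT 3 were called, beside 0.0749% of all genes, with 21 at an unadjusted p under 0.05 and 9 called by DESeq2. Nfia, a nuclear factor of neural development, was at 470.3, 477 and 451 CPM in the WT embryos, 820.5, 697, 825 and 666 in the Het embryos and 1057, 810.05 and 989 in the KO embryos. All Het and KO embryos lay above all WT embryos, by a log2 fold change of 0.69 ± 0.098 (SE), adjusted p = 0.00578 in Het vs WT and 1.03 (adjusted p = 4.5e-05) in KO vs WT. The KO call held under all 22 alternatives, while the Het call was lost with the prefix as a covariate (log2 fold change 0.51, adjusted p = 0.396) and without WT1 (0.0533). H3f3b, which encodes the histone variant H3.3, was at log2 fold change 0.65 (adjusted p = 0.000105) in KO vs WT and held under all 22. The linker histone gene Hist1h1e at log2 fold change 1.17 (adjusted p = 0.00107), Slc24a5 at log2 fold change 1.10 (adjusted p = 0.000867), and the ribosomal protein genes Rpl38 at log2 fold change -0.63 (adjusted p = 0.00396) and Rps29 at log2 fold change -0.53 (adjusted p = 0.0111) were called as well. Those calls were lost for Hist1h1e with the prefix as a covariate (log2 fold change 0.61, adjusted p = 0.297), for Slc24a5 with the prefix as a covariate (log2 fold change 0.31, adjusted p = 0.385) and for Rpl38 with the prefix as a covariate (log2 fold change -0.31, adjusted p = 0.45). The Rps29 call was lost with the prefix as a covariate (log2 fold change -0.27, adjusted p = 0.541) and without WT1, KO2 or KO3 (0.057 to 0.0645).

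Het vs WT gave 8 genes in all, 4 lower and 4 higher. Of the reelin genes 1 of 25 fell, Dab1, beside 0.0374% of all genes. Lower were Mef2c, a MADS-box factor of cortical neurons, the glutamate receptor gene Grm5, the reelin adaptor Dab1 and Hivep2. Mef2c was at 225, 334 and 139.9 CPM in the WT embryos, 46.2, 77.1, 71.8 and 76.8 in the Het embryos and 137, 67.8 and 132 in the KO embryos. Mef2c had a Het vs WT log2 fold change of -1.78 ± 0.24 (SE), adjusted p = 0.00436, and every Het embryo was below every WT embryo. Dab1 was at 51.4, 77.2 and 40.5 CPM in the WT embryos, 32, 25.4, 27.5 and 19.1 in the Het embryos and 43.9, 35.9 and 51 in the KO embryos. Dab1 had a Het vs WT log2 fold change of -1.12 ± 0.201 (SE), adjusted p = 0.0478, while KO vs WT was not called. Grm5 was at log2 fold change -1.77 (adjusted p = 0.0478) and Hivep2 at log2 fold change -1.13 (adjusted p = 0.0478). Higher were Fos at log2 fold change 1.62 (adjusted p = 0.00176), Hist1h1e at log2 fold change 0.94 (adjusted p = 0.0332), Nfia and Hnrnpa0, an RNA-binding protein gene, at log2 fold change 0.44 (adjusted p = 0.0478). Fos was at 24.7, 23.3 and 20.1 CPM in the WT embryos, 75.2, 85, 62 and 53.2 in the Het embryos and 72.3, 52.4 and 93.4 in the KO embryos. The markers of cortical-plate excitatory neurons, a list of 9 genes that holds Mef2c itself, summed in these cells to 434 to 811 CPM (WT), 317 to 433 (Het) and 502 to 786 (KO), none of them at 0. Without Mef2c the sums, given above, overlapped between WT and Het, and their part in the result was not tested. All 8 calls were lost with the prefix as a covariate. In that fit Het vs WT sets Het4 alone against the 3 WT embryos, so the loss rests on 1 Het embryo. The log2 fold changes were then -1.61 (adjusted p = 0.449) for Mef2c, -1.91 (adjusted p = 0.578) for Grm5, -1.57 (adjusted p = 0.257) for Dab1 and -1.11 (adjusted p = 0.578) for Hivep2. For the higher genes they were 1.23 (adjusted p = 0.257) for Fos, 0.50 (adjusted p = 0.758) for Hist1h1e, 0.51 (adjusted p = 0.396) for Nfia and 0.24 (adjusted p = 0.712) for Hnrnpa0. Calls were also lost for the 4 lower genes with doublets removed (adjusted p = 0.168 for Mef2c, 0.299 for Grm5, 0.275 for Dab1 and 0.198 for Hivep2), and for 6 of the 8 without at least 1 library, the exceptions being Mef2c and Fos. Grm5, Dab1 and Hivep2 were each lost when 1 of 8 libraries was left out (adjusted p = 0.0505 to 0.306), the exceptions being WT3 and Het4. All 3 were also lost with only the compared groups in the fit (0.0777) and in cells with at least 3000 UMIs (0.0533), and Grm5 in cells with at most 5% mitochondrial UMIs. Hist1h1e was lost with the prefix as a covariate (log2 fold change 0.50, adjusted p = 0.758), without WT2, WT3, Het1, Het2, Het3, KO1, KO2 or KO3 (0.0505 to 0.227) and with only the compared groups in the fit (0.0777), and Hnrnpa0 with the prefix as a covariate (log2 fold change 0.24, adjusted p = 0.712), without WT1, WT2, WT3, Het1, Het2, Het3, KO1, KO2 or KO3 (0.0667 to 0.26) and in 3 alternatives of cells or model (0.0533 to 0.0854).

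Markers of other cell types were present in the summed Cajal-Retzius cells, and their counts of called genes stand beside 1.84% of all genes higher and 1.82% lower in KO vs WT. The inhibitory list summed to 46.7 to 79.9 CPM (WT), 21.4 to 66.4 (Het) and 37.5 to 58.6 (KO), against a median of 2143 in inhibitory neurons with Reln, and 0 of 4 tested genes were called by edgeR or DESeq2 in KO vs WT, with 1 at an unadjusted p under 0.05. The excitatory list stood at a median of 3469 CPM in excitatory neurons. In KO vs WT, 1 of its 9 genes was higher, Sstr2 at log2 fold change 1.54 (adjusted p = 0.0405), and 1 lower, Mef2c at log2 fold change -1.01 (adjusted p = 0.0352). The call of Sstr2 was lost with the prefix as a covariate (log2 fold change 2.67, adjusted p = 0.0622), without WT1, WT2, WT3, Het1, KO1 or KO3 (0.0541 to 0.174), with marked doublets removed (0.205) and in cells with at least 2 of the 4 marker genes (0.292). The Mef2c call was lost with the prefix as a covariate (log2 fold change -0.78, adjusted p = 0.578), without WT1, WT2, KO1, KO2 or KO3 (0.0646 to 0.156) and in 3 alternatives of cells or model (0.0604 to 0.337). Neurod6 averaged 154 ± 26.3 CPM (WT), 104 ± 26 (Het) and 201 ± 61.8 (KO) (SD), and in KO vs Het it rose, with log2 fold change 0.98 (adjusted p = 0.021). The Neurod6 call was lost without Het2, Het3 or KO3 (0.0643 to 0.208) and in 4 alternatives of cells or model (0.053 to 0.0969). Of the same list, Tle4 was called as higher in KO vs WT in 4 of 22 alternatives and Neurod6 in 1 of 22. The 10 radial glia and dividing-cell genes summed to 185 to 325 CPM (WT), 239 to 380 (Het) and 212 to 924 (KO), the highest in KO3 with Fabp7 at 459.7, and Hmgb2 was the 1 of 8 called. Of these 8, 4 had an unadjusted p under 0.05 in KO vs WT, with a median log2 fold change of 0.859. Pax6 was called as higher in 6 of 22 alternatives, Fabp7 in 2 of 21 and Vim in 0 of 22. The part of this list in the change of Hmgb2 was not tested. The 7 hemoglobin and erythroid genes summed to 72.3 to 1786 CPM (WT), 28.1 to 1794 (Het) and 32.4 to 36.4 (KO), and 0 of 4 tested were called by edgeR or DESeq2 in KO vs WT, with 3 at an unadjusted p under 0.05 and a median log2 fold change of -3.765. Hbb-bs was called as lower in 4 of 21 alternatives, Hba-a1 in 3 and Hba-a2 in 2. Microglial genes summed to at most 3.01 CPM and choroid plexus genes to at most 41.6. Lum was at 0 in every embryo among 10 meningeal genes that summed to 56.2 to 269 CPM, and 7 endothelial genes summed to 6.48 to 275 CPM, the highest in 1 Het embryo.

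Effects of the homozygous allele in Cajal-Retzius cells were set beside those in excitatory neurons, kept cells with at least 3 Neurod6 UMIs and no Reln (32359 cells). The difference of the KO vs WT effects was called at an adjusted p under 0.05 for 260 of 10687 genes (2.43%), 157 of them (1.47%) with the higher value in Cajal-Retzius cells, and the count was 156 without WT3. Leaving out a library was the only alternative run for these differences. They were not fitted with the prefix, with doublets removed or by DESeq2. The genes tested were those that passed the filter in Cajal-Retzius cells, some of them near 0 in excitatory neurons. The rule of naming took the 3 genes each way with the smallest adjusted p. Gabrg3, higher in KO Cajal-Retzius cells, was at log2 fold change -2.32 (adjusted p = 9.95e-08) in excitatory neurons, with means of 6.72 CPM in WT and 1.3 in KO there, a difference of 3.37 ± 0.222 (SE), adjusted p = 3.3e-07. Adgrl3, a latrophilin, was at log2 fold change 0.55 (adjusted p = 0.0142) against log2 fold change -0.83 (adjusted p = 4.79e-07), a difference of 1.39 ± 0.107 (SE), adjusted p = 1.26e-06, its Cajal-Retzius call being lost without WT1, WT3 or KO3 (0.0589 to 0.0729). Cacna2d2 fell in both, from 6.96 to 2.27 CPM in excitatory neurons, a difference of 1.23 ± 0.109 (SE), adjusted p = 5.91e-06. For Gabrg3 and Cacna2d2 the KO excitatory levels were under 3 CPM, where free RNA can enter, and its part was not tested. In the other direction, Gadd45g, Ifitm2 and Edil3 were not called in Cajal-Retzius cells and were higher in KO excitatory neurons, at log2 fold change 1.53 (adjusted p = 1.96e-06), log2 fold change 1.44 (adjusted p = 1.24e-06) and log2 fold change 0.96 (adjusted p = 4.76e-08). Their differences were -1.66 (adjusted p = 1.15e-05), -1.27 (adjusted p = 4.63e-07) and -1.19 (adjusted p = 1.38e-06).

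Other genes named above were compared in the same way. Angpt1 was at log2 fold change -0.04 (adjusted p = 0.842) in excitatory neurons, a difference of -2.04 ± 0.269 (SE), adjusted p = 0.000333, and Fam19a5 at log2 fold change 0.08 (adjusted p = 0.324), a difference of -1.5 ± 0.146 (SE), adjusted p = 1.46e-05. Pnoc was at 0.387 CPM in WT and 0.242 in KO in excitatory neurons, and it was tested only through its level in Cajal-Retzius cells, so nothing is read from its difference. Nhlh2 rose in both but by more in excitatory neurons, log2 fold change 1.38 (adjusted p = 1.72e-07), from 12.8 to 32.1 CPM, a difference of -1.02 ± 0.0982 (SE), adjusted p = 1.46e-05. Ndnf went from 2.04 to 0.197 CPM in excitatory neurons, against 1378 CPM in WT Cajal-Retzius cells, and nothing is read from its difference either. Free RNA from other cells can enter such low values, and its part was not tested. For Tbr1, Dmrta2 and Nfia the differences were 0.08 (adjusted p = 0.857), 0.11 (adjusted p = 0.817) and -0.10 (adjusted p = 0.647), so none was called.

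**Figure D5:**
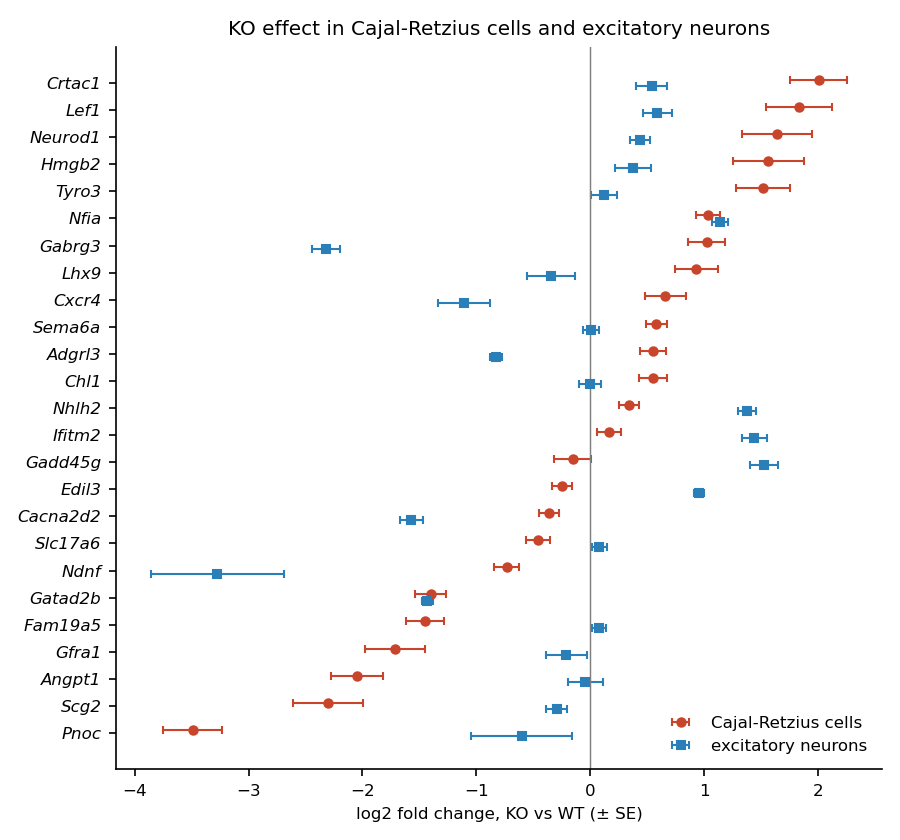
KO vs WT log2 fold change (± SE) of 25 named genes in Cajal-Retzius cells (circles) and excitatory neurons (squares). Scg2, Angpt1 and Fam19a5 had lower values in Cajal-Retzius cells than in excitatory neurons, Gabrg3 and Adgrl3 had opposite signs in the 2 groups, and Gatad2b and Nfia lay together. In excitatory neurons Pnoc, Ndnf and Gfra1 were under 3 CPM and Cxcr4 was at 1.06 to 3.31 CPM, and nothing is read from their difference.

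Against inhibitory neurons with Reln (1026 cells), 8 of 10687 genes (0.0749%) differed in the KO vs WT effect, 3 of them (0.0281%) with the higher value in Cajal-Retzius cells, and 0 in Het vs WT (0%) by edgeR, where 377 had an unadjusted p under 0.05 and no other tool was run. Pnoc had opposite directions in the pair of cell groups: it rose in the inhibitory neurons, from 26.2 to 38.6 CPM in the WT embryos to 68.1 to 128 in the KO embryos, log2 fold change 1.45 (adjusted p = 0.0476), while it fell in the Cajal-Retzius cells. The difference was -4.95 ± 0.449 (SE), adjusted p = 0.000131. Fam19a5 was at log2 fold change 0.06 (adjusted p = 0.918) there, with a difference of -1.55 ± 0.2 (SE), adjusted p = 0.00651. Chl1 was at log2 fold change -0.88 (adjusted p = 0.00596) in inhibitory neurons and log2 fold change 0.55 (adjusted p = 0.0201) in Cajal-Retzius cells, a difference of 1.42 ± 0.205 (SE), adjusted p = 0.01. Among those inhibitory neurons Trp73 was detected in 15% of the KO2 cells, against 1.39% to 7.29% in the other embryos, and its part in the result was not tested. The count of 8 was 1 without KO1, 2 without KO2, 3 without WT3 and 4 without WT1.

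In Het vs WT, 7 genes (0.0655%) differed from excitatory neurons, among them Mef2c with a difference of -1.33 ± 0.231 (SE), adjusted p = 0.036, and Grm5 with -1.68 ± 0.283 (SE), adjusted p = 0.036. In excitatory neurons Mef2c was at log2 fold change -0.38 (adjusted p = 0.0066) and Grm5 at log2 fold change -0.06 (adjusted p = 0.69) in the same comparison. The count of 7 was 0 without WT1, WT2, Het2 or Het4, 1 without Het1, 3 without Het3, 11 without KO3 and 13 without WT3.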

How the data were processed

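Single-cell RNA-seq libraries (10x 3′ v3) were made by the authors from E16.5 cortex, 1 library per embryo, and the deposited files hold raw UMI counts per gene and cell on mm10. The processing notes name Cell Ranger 6.0.2, while the study's methods name another version. Other columns of per-sample values were not present.

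The counts were filtered at 1000 UMIs and 10% mitochondrial UMIs per cell. Counts of the chosen cells were summed per embryo, and genes were filtered with filterByExpr and scaled by TMM in edgeR 4.0.16 (R 4.3.3). CPM values are on that scale in genotype comparisons and unscaled in comparisons of cell groups. Genotypes were compared with quasi-likelihood tests over all 10 embryos, called where the Benjamini-Hochberg adjusted p was below 0.05 with a log2 fold change beyond 0.25 in size. Differences between cell groups were tested as interactions with embryo as a block, and called at an adjusted p under 0.05. The study's own test took cells as units, whereas embryos are the units here, and while the study calls Het and WT embryos littermates, which embryos shared a litter is not given in the sources used here. Shares were compared with exact permutation tests (scipy 1.17.1), and intervals cover counting error only. Alternatives were DESeq2 1.42.0, its size factors, no filter, a replicate block, the prefix, 2 groups only, doublets removed, other cell thresholds, and each library left out. The replicate block gives Het4, the only replicate 4, its own term, so Het4 adds nothing to the differences in that fit. For differences between cell groups, only each library left out was run. Requiring all 4 marker genes was added after seeing the data, as were the alternatives for the genes that chose the cells. The scripts were tested on simulated data.

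The members and the gene lists were chosen with earlier results of these data known. The genes named are Gatad2b, the genes of the rule, from each list the called genes (at most 6 by size) and the 3 most abundant, the 10 largest called changes each way in KO vs WT and 5 each way in Het vs WT with groups that do not overlap and a mean of at least 20 CPM, and the 3 each way with the smallest adjusted p for the difference from excitatory neurons. Epha3 was named after its values were seen, and 4 genes that the rule takes are not reported here. Gene positions are from GENCODE on GRCm38 and promoter windows from RefSeq.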

Additional observations from a re-analysis of the deposited data

Results flagged for a closer look

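A sample far from the others of its group was found in 12 of 101 Het groups of 4 embryos tested by Dixon's criterion, where chance gives about 1 in 20. Het4 stood apart for 5 genes, with Gabrg3 at 30.8 CPM, Gabra2 at 61.6, Epha5 at 260, Ntrk2 at 212 and Slc24a5 at 125. Het4 is also the 1 Het library that shares its prefix with WT. Het3 stood apart for Maf at 14.3 CPM and Egfl7 at 40.3, and Het1 for Robo1 at 68.3. Het2 stood apart for Slc17a6 at 206 CPM and for the hemoglobin genes Hbb-bs at 1287, Hba-a1 at 267 and Hba-a2 at 214.

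The effect of genotype differed between Cajal-Retzius cells and excitatory neurons, by the test of the difference itself, for the named genes below, each given as the log2 difference with Cajal-Retzius cells first. In Het vs WT it was -1.33 for Mef2c and -1.68 for Grm5. In KO vs WT it was higher in Cajal-Retzius cells for Gabrg3 (3.37), Crtac1 (1.45), Tyro3 (1.44), Adgrl3 (1.39), Lhx9 (1.3), Cacna2d2 (1.23), Lef1 (1.23), Hmgb2 (1.19), Neurod1 (1.19), Sema6a (0.59) and Chl1 (0.56). It was lower in them for Angpt1 (-2.04), Scg2 (-1.97), Gadd45g (-1.66), Fam19a5 (-1.5), Ifitm2 (-1.27), Edil3 (-1.19), Nhlh2 (-1.02) and Slc17a6 (-0.52). Gabrg3 and Cacna2d2 were under 3 CPM in KO excitatory neurons. For Ndnf (2.53), Pnoc (-2.88) and Gfra1 (-1.54) the excitatory neurons held under 3 CPM, and for Cxcr4 (1.77) they held 1.06 to 3.31 CPM. These genes were tested only through their level in Cajal-Retzius cells, and nothing is read from these values. Against inhibitory neurons with Reln, the KO vs WT difference was 1.42 for Chl1, -4.95 for Pnoc and -1.55 for Fam19a5. None of these differences was fitted with the prefix, with doublets removed or by DESeq2.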

How the results depend on the processing

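Counts of called genes moved by more than 1.5 times as follows. In Het vs WT, 8 genes became 25 with DESeq2, 250 with no filter on low counts, 0 with the prefix as a covariate (690 at an unadjusted p under 0.05), 3 with only the 2 groups in the fit, 3 with doublets removed, 4 at 3000 UMIs or more per cell, 13 at 5% mitochondrial UMIs or less, and 16 with at least 2 or with all 4 marker genes. In KO vs WT, 392 became 778 with no filter and 76 with the prefix. In KO vs Het, 71 became 362 with no filter, 111 with the prefix, 143 within the second prefix, 42 with doublets removed and 45 at 3000 UMIs. The cause was not tested, other than that no filter tests 19238 genes. For the genes that chose the cells, summed over all kept cells, 0 calls in Het vs WT and KO vs WT became 2 with the prefix, 2 with a replicate block and 1 with DESeq2, beside calls of Reln and Lhx5 in KO vs Het with the prefix and the block and of Lhx5 with DESeq2. The share difference of Het vs WT reversed to -0.218 percentage points within the first prefix (Het4 alone against 3 WT embryos, a value with no test), and the log2 fold change of Cxcr4 in KO vs WT to -0.0728 with the prefix.

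Leaving out 1 library at a time gave 3 to 84 calls in Het vs WT, 158 to 569 in KO vs WT, 10 to 110 in KO vs Het, and 0 to 3 for the choosing genes. Differences from excitatory neurons numbered 0 to 13 in Het vs WT and 156 to 272 in KO vs WT, and from inhibitory neurons 0 to 3 and 1 to 10. Share differences ranged from 0.0235 to 0.275 points in Het vs WT, -0.272 to -0.0807 in KO vs WT and -0.471 to -0.219 in KO vs Het.

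The replicate block raised the Het vs WT count from 8 to 88, KO vs WT was 547 and KO vs Het 85. Only Het4 has the number 4, so the block takes Het4 out of the comparisons. Leaving Het4 out gave 84, 569 and 110. Same-numbered embryos had correlations of deviations from -0.116 to 0.0891, beside -0.0996 to 0.132 for differently numbered embryos. Whether a shared number marks a shared litter cannot be told from these values and was not tested. Of 78 gene results, 18 kept direction and call under every alternative. KO2 was the shallowest, with 40 cells and 987929 UMIs.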
